A study of Mus musculus with 24 samples.

Results

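The facilitated glucose transporters of the Slc2a family were examined in the colon and liver of mice raised on high-fat diets that differed in selenium and folate. The array carried 14 probes on 23 spots for the 7 genes Slc2a1, Slc2a2, Slc2a3, Slc2a4, Slc2a5, Slc2a8 and Slc2a9, out of 41174 probes on 43379 spots that were not controls, and each probe was chosen because its gene name equalled one of these symbols. All 12 mice were female C57BL/6 offspring, sampled at 12 weeks of age, of dams that ate the HF-low diet (high fat, low in selenium and folate) before mating, through gestation and during lactation. From weaning 6 mice stayed on the HF-low diet (HF-low-low) and 6 were moved to a high-fat diet that supplied enough of both nutrients (HF-low-suf), so that both groups shared the maternal diet and the high fat content, and only the post-weaning diet differed. RNA of whole colon and whole liver from each mouse, labelled with Cy3, was hybridised on 24 two-colour Agilent arrays against a pool of RNA from all mice labelled with Cy5, with no swap of the dyes. The labels describe this reference as colon and liver RNA, the study's methods as intestinal and liver RNA. Values are log2 ratios of Cy3 to Cy5, in which 0 is equal normalised signal of sample and reference and 1 unit is a doubling of the ratio. The mean ratio was below 0 in both tissues for Slc2a1 (-0.82 in colon, -2.59 in liver), Slc2a3 A_52_P354744 (-1.18 and -1.04) and Slc2a5 (-1.91 and -2.09), and that of 23 skeletal muscle markers lay between -4.95 and -2.34 on all 24 arrays, whereas a mixture of the 2 tissues alone would lie between them. The makeup of the reference was not tested, and ratios are compared only between arrays. In whole tissue, fewer cells of a type and less RNA per cell cannot be told apart.

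Slc2a proteins move hexoses across membranes along their concentration gradient, without an energy source of their own, and differ in substrate, affinity and place in the cell. Slc2a2 (GLUT2) is the high-capacity carrier of hepatocytes and of the absorbing gut epithelium, Slc2a1 (GLUT1) serves basal uptake in most tissues, Slc2a3 (GLUT3) is the high-affinity carrier of neurons, and Slc2a5 (GLUT5) carries fructose. Slc2a4 (GLUT4) is kept in vesicles of muscle and fat cells and moves to the surface when insulin binds its receptor. Slc2a8 (GLUT8) lies mostly on membranes inside the cell, and Slc2a9 (GLUT9) carries urate.

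The tissues carried the markers of their labels. The 8 hepatocyte markers on the array had a mean log2 ratio between 1.32 and 1.90 on every liver array and between -4.06 and -3.77 on every colon array. Those of colon epithelium, 10 genes, lay between 0.06 and 0.78 in colon and between -3.92 and -2.49 in liver. Over the arrays the Cy3 signal was 3.78 to 7.20 times the background at the median. Arrays of one group correlated at 0.655 to 0.938 over all probes, and a liver and a colon array at 0.00132 to 0.283. On 2 arrays, colon HF-low-suf mouse 5 and liver HF-low-suf mouse 4, the reference channel was brighter than on the others. On that liver array 8.75% of the spots were marked as outliers, against 0.267% to 0.768% on the other arrays. Liver HF-low-suf mouse 1 stood apart in fat markers and mouse 2 in skeletal muscle markers, whose values are given with Slc2a4.

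Detection of the transporters was uneven. The scanner software marks a spot as well above background or not, and the 3 probes of Slc2a1, Slc2a5 and Slc2a8 (A_52_P125354) reached that mark in Cy3 on all 24 arrays. A further 2 probes, both of Slc2a3, reached it on no array, and the remaining 9 did so on some. On at least 6 of the 12 arrays of one or the other tissue, 10 of the 14 probes were well above background. The plot of log2 ratios by array shows every probe with its dim arrays as open symbols. For a probe that was dim on every array of a group the ratio is only a bound there, and a fitted difference that involves such a group is not a measured one.

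**Figure D1:**
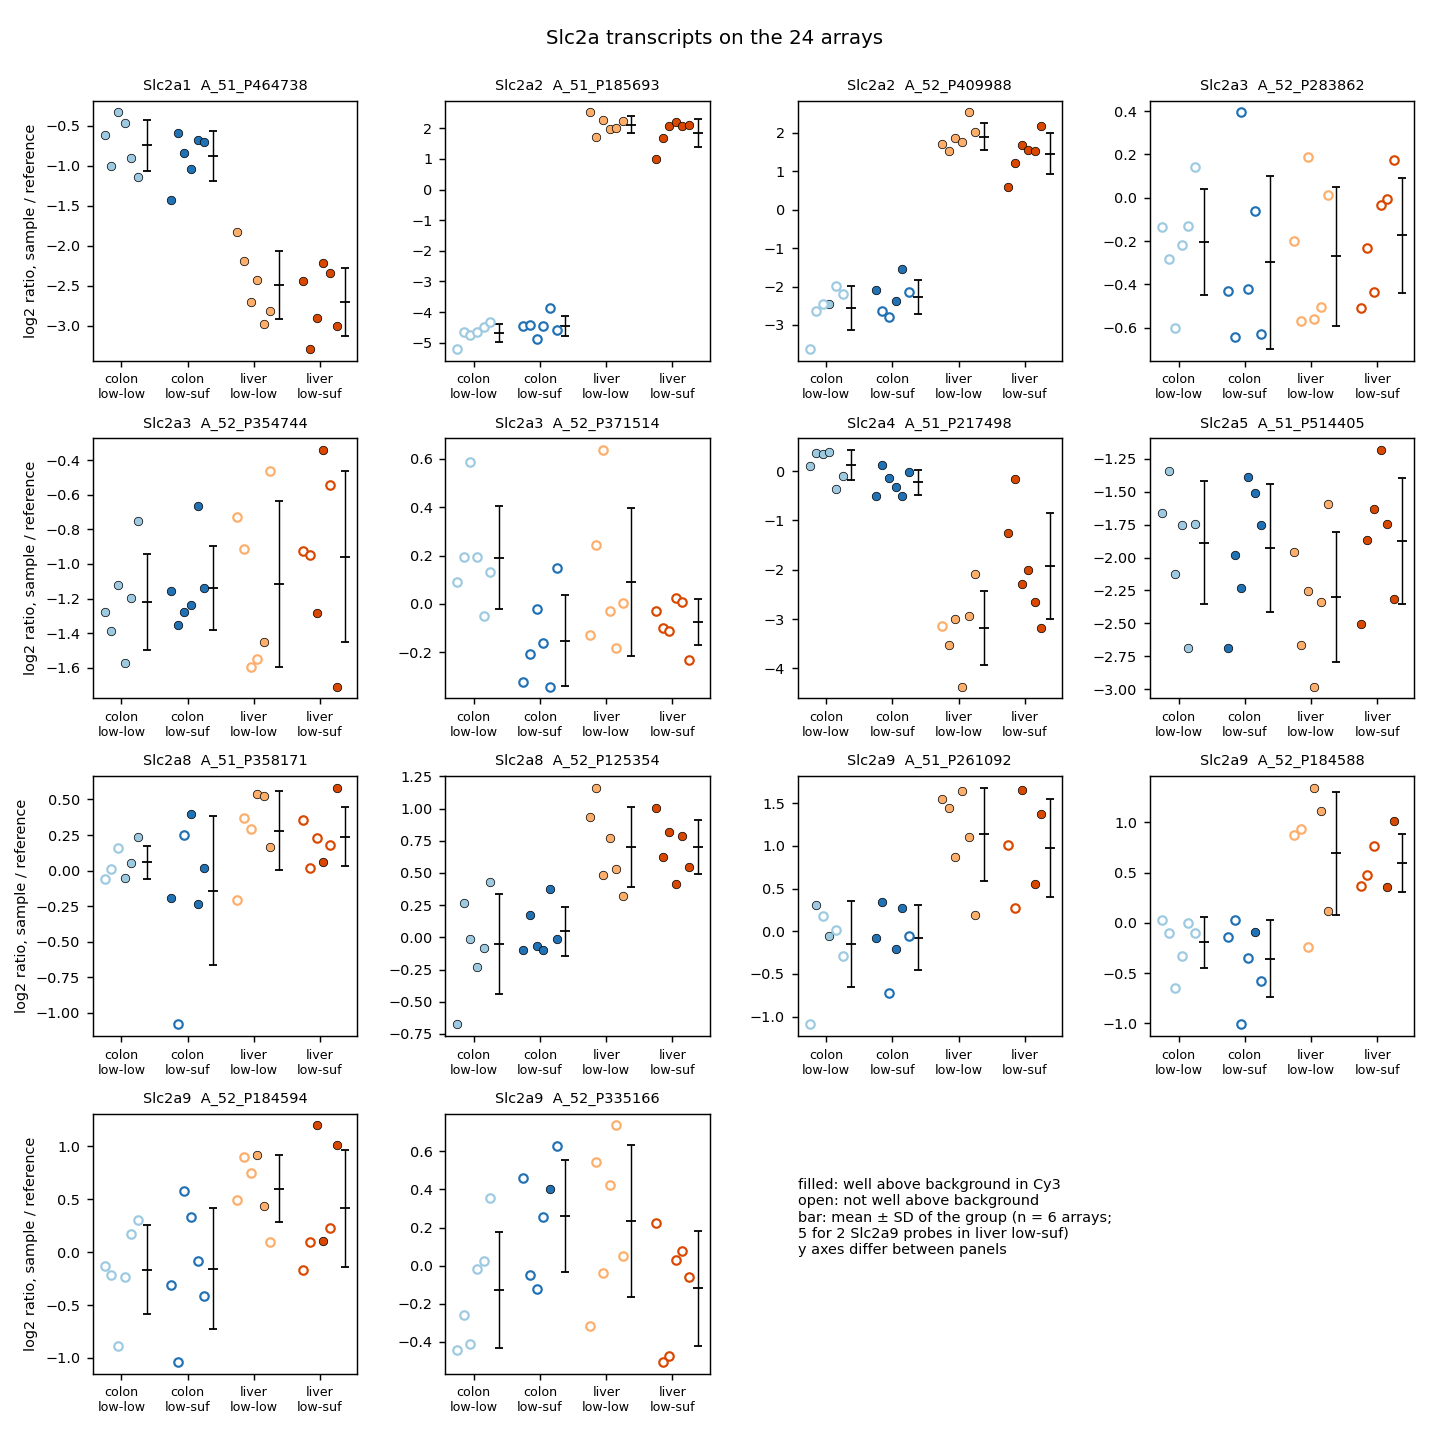
Log2 ratio of sample to reference (y axis) of the 14 Slc2a probes on the 24 arrays, in 4 groups of 6 (x axis); filled points were well above background in Cy3, open points were not, and bars are the group mean ± SD. The liver and colon points do not overlap for Slc2a1 and both Slc2a2 probes, and the 2 diets overlap in every panel.

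The first comparison was between liver and colon of the same mouse. Of the 14 probes, 8 differed between the tissues at an adjusted P below 0.05 in limma, 6 of them higher in liver and 2 lower, and these came from 5 of the 7 genes. Among all 41174 probes, dim ones included, 37.2% passed the same threshold, 18.7% higher and 18.5% lower in liver. A tissue difference was thus common on this array. At an unadjusted P below 0.05 the counts were 9 of 14 against 42.7%, and below 0.01 they were 8 of 14 against 34.6%. The median difference of the 14 probes was 0.22 on the log2 scale, and that of all probes 0.02. Liver and colon arrays did not overlap for 3 of the 14 probes, against 12.5% of all probes. Slc2a2, Slc2a8 and Slc2a9 were higher in liver, Slc2a1 and Slc2a4 were lower, and Slc2a3 and Slc2a5 did not pass the test. The exact permutation tests that follow flip the sign of the within-mouse differences, are two-sided, and cannot give a P below 0.000488 for 12 mice.

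Slc2a2 differed most. Its probe A_51_P185693 (chromosome 3, 28543803 to 28543862, plus strand, mouse build mm7) had log2 ratios in liver of 1.73 at the lowest, 2.13 at the median and 2.52 at the highest in HF-low-low mice, and of 1.003, 2.08 and 2.21 in HF-low-suf mice, where the lowest was mouse 1. In colon the same probe lay between -5.20 and -3.86 and was well above background on 0 of 12 arrays. The level in liver was at least 54.6-fold higher than in colon (adjusted P = 3.53e-15 in limma), and it was higher in 12 of 12 mice (exact permutation P = 0.000488).

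The other Slc2a2 probe, A_52_P409988, is shown because its 60 bases cover 709 bases of mm7 (chromosome 3, 28542040 to 28542748, plus strand), so that the stretch it reads is interrupted in the genome and contiguous in the spliced transcript.
Slc2a2 A_52_P409988: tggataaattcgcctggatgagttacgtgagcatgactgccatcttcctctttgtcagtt
Its log2 ratio in liver ran from 0.58 to 2.53 and in colon from -3.62 to -1.55, where 4 of 12 arrays were well above background. The fitted difference was 4.09 (SE 0.15, adjusted P = 3.74e-12 in limma), for which no fold is given because most colon arrays were dim, and again 12 of 12 mice were higher in liver. Both probes of the gene placed it on the same side, and the size on this probe varied between 3.48 and 5.55 over the processing alternatives.

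Slc2a1 went the opposite way. The probe (chromosome 4, 118513698 to 118513757, plus strand) was well above background on every array, with log2 ratios of -1.14, -0.77 and -0.34 (lowest, median and highest) in colon HF-low-low and of -1.43, -0.78 and -0.60 in colon HF-low-suf mice. The corresponding liver values were -2.97, -2.57 and -1.83, and -3.29, -2.67 and -2.21. The highest liver array lay below the lowest colon array. The mRNA abundance was 3.43-fold lower in liver, a log2 difference of -1.78 (SE 0.15, adjusted P = 7.77e-08 in limma), and lower in 12 of 12 mice (exact permutation P = 0.000488).

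Slc2a4 was the other transporter that was lower in liver. It is read by 1 probe, A_51_P217498 (chromosome 11, 70024145 to 70024204, minus strand), which is printed on 10 spots of each array, whereas every other Slc2a probe has 1 spot. Bases 31 to 60 are shown because they hold ATTAAA, here in capitals, the most frequent variant of the polyadenylation signal AATAAA.
Slc2a4 A_51_P217498, bases 31 to 60: caagggctgctgtATTAAAtgtgtatatag
ATTAAA occurs on the printed strand of 2.90% of all 41174 probes and on either strand of 5.74%, and AATAAA on 4.78% and 8.80%. No other Slc2a probe holds either of these letter strings. Whether the 60 bases lie in the coding part or in the 3′ end of the transcript was not looked up, since no annotation of build mm7 was used here.

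The log2 ratio of Slc2a4 in colon ran from -0.50 to 0.39 over the 12 mice and in liver from -4.37 to -0.16. The liver minus colon difference was negative in every mouse, from -4.75 to -0.28, and the ranges of the tissues overlapped because liver HF-low-suf mouse 2, at -0.16, lay above 4 of the 12 colon values. The mean difference was -2.50 (SE 0.25), 5.65-fold lower in liver (adjusted P = 4.66e-07 in limma; exact permutation P = 0.000488). The spread between mice was wider in liver, with an SD of 1.10 over 12 livers against 0.33 over 12 colons. The repeated spots differed far less than the mice, with an SD within an array of 0.02 to 0.14 in liver and 0.01 to 0.03 in colon. In colon 12 of 12 arrays were well above background and in liver 11 of 12.

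Slc2a9 has 4 probes, which did not give one answer. A_51_P261092 (chromosome 5, 37431075 to 37431134, minus strand) had log2 ratios of 0.19 to 1.66 in 11 livers and -1.09 to 0.34 in 12 colons, and was 2.23-fold higher in liver (log2 difference 1.16, SE 0.22, adjusted P = 0.000634 in limma). That probe was well above background on 10 of 12 livers and 6 of 12 colons, so that the fold rests partly on dim arrays. A_52_P184588 (37432358 to 37432416) had a fitted difference of 0.92 (SE 0.16, adjusted P = 0.000279), for which no fold is given because 1 of 12 colon arrays was well above background, that of HF-low-suf mouse 5 with the bright reference. For both, the spot of liver HF-low-suf mouse 4 was marked as an outlier and left out, so that these values rest on 11 mice, of which 10 and 11 were higher in liver. The sizes were uncertain in another respect, since over the processing alternatives the first varied from 0.76 to 2.13 and the second from 0.66 to 1.95, all in the same direction and past the threshold.

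The last pair of Slc2a9 probes is shown because one reads the gene near the first pair and one far from it. The bases of A_52_P184594 lie at 37432638 to 37432697, and those of A_52_P335166 are spread over 12387 bases, 37763898 to 37776284, of the same strand.
Slc2a9 A_52_P184594: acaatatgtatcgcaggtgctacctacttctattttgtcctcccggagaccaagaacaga
Slc2a9 A_52_P335166: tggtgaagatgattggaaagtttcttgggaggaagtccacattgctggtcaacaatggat
A_52_P184594 was well above background on 5 of 12 livers and 0 of 12 colons and was at least 1.15-fold higher in liver (adjusted P = 0.00422 in limma, higher in 10 of 12 mice). A_52_P335166 was well above background on 1 of 24 arrays, a colon, and gives no measurable difference between the tissues. The 3 probes that differed thus lie together at one end of the positions, and the probe at the other end was near background.

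Slc2a8 was higher in liver by one of its probes. A_52_P125354 (chromosome 2, 32980483 to 32980542, minus strand) had log2 ratios of 0.32 to 1.16 in liver and -0.67 to 0.43 in colon, and was 1.63-fold higher in liver (log2 difference 0.70, SE 0.13, adjusted P = 0.000256 in limma), in 11 of 12 mice (exact permutation P = 0.000977). With median centring in place of loess the difference fell to 0.29 and no longer passed the threshold. The other probe, at 32983503 to 32983562 of the same strand, is shown because its answer differed.
Slc2a8 A_51_P358171: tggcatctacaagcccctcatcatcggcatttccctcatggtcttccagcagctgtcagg
It was dimmer, well above background on 5 livers and 7 colons, with ratios of -0.21 to 0.58 in liver and -1.08 to 0.40 in colon. Its difference of 0.30 (SE 0.12) did not pass the threshold (adjusted P = 0.0582 in limma, higher in 8 of 12 mice) and did so under 6 of 12 processing alternatives, with the same sign.

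Slc2a5 and Slc2a3 did not pass the test between the tissues. Slc2a5 (chromosome 4, 149133208 to 149133267, plus strand) was well above background on all arrays, with log2 ratios of -2.98 to -1.19 in liver and -2.69 to -1.34 in colon, and 6 mice were higher in liver and 6 lower. Its difference was -0.18 with a 95% interval of -0.50 to 0.14 (adjusted P = 0.419 in limma). With median centring it was -0.61 and passed. For Slc2a3 the probe that passed the mark on at least some arrays, A_52_P354744 (chromosome 6, 122764878 to 122764937, minus strand), was well above background on 12 colons and 4 livers, so that most livers were dim, and had a fitted difference of 0.14 with an interval of -0.13 to 0.41 (adjusted P = 0.451), a difference whose sign turned under 5 of 12 alternatives, among them median centring (-0.17) and the signals processed by Feature Extraction (-0.47). The remaining Slc2a3 probes, A_52_P371514 (chromosome 6, 122774576 to 122774635) and A_52_P283862, were dim on all arrays, and the file places the latter on chromosome 17 (81748170 to 81748230), not on the chromosome of the other probes.

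**Figure D2:**
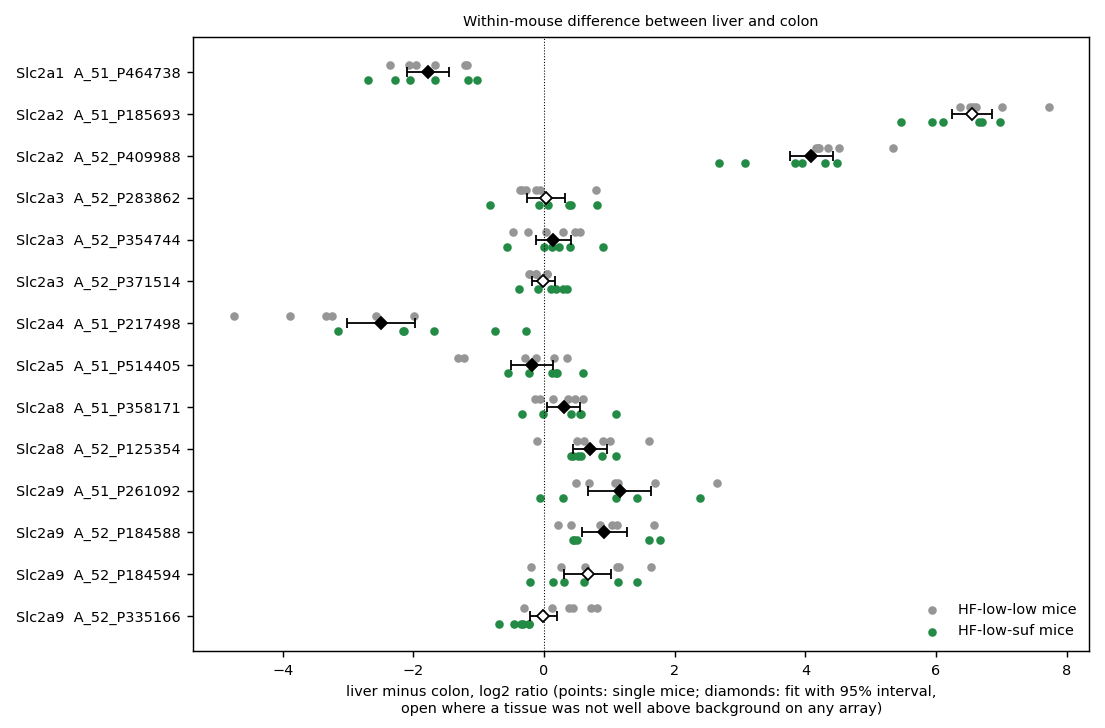
Liver minus colon log2 ratio (x axis) of each Slc2a probe (y axis) in single mice (points, grey HF-low-low, green HF-low-suf) with the fitted difference and its 95% interval (diamonds, open where a tissue was dim on all arrays). Slc2a2 lies far to the right, Slc2a1 and Slc2a4 to the left, and the 12 values of Slc2a4 spread from -4.75 to -0.28.

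The genes around the transporters were read from lists of pathway genes, 1 probe per gene. The counts below stand against 18.7% of all probes higher and 18.5% lower in liver, and the lists themselves were not tested. These shares are not a like base, since they include dim probes and a list takes the brightest probe of a gene. With probes left out that passed the mark on fewer than 6 arrays in each tissue, 13619 of 19080 were called. Of these calls 47.8% were higher in liver. No excess is therefore read from the counts of a list. Of 12 genes of hexose phosphorylation and release, 9 were higher in liver and 3 lower, with a median log2 difference of 2.25. Gckr, a regulatory protein of hepatocytes, was higher by 7.13, the glucose-6-phosphatase G6pc by 5.24 and the glucose-6-phosphate carrier Slc37a4 by 3.05. Lower in liver were the low-Km hexokinases Hk1 (-3.01) and Hk2 (-1.40) and the ubiquitous phosphatase G6pc3 (-1.22). Among the 7 regulators of other Slc2a genes, 5 were higher in liver, led by the liver factors Onecut1 (3.82) and Foxa2 (2.19) and by the carbohydrate-response factor Mlxipl (1.51), and 2 were lower, Txnip (-2.82), whose protein restrains glucose uptake, and Arrdc4 (-0.40).

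The genes that act on Slc2a4 went both ways. Of 19 vesicle traffic genes 10 were lower, 4 higher and 5 not called, with a median of -0.32. Of all probes, dim ones included, 18.5% were lower and 18.7% higher. The sorting receptor Sort1 (-3.52), the vesicle protein Lnpep (-0.97), Stxbp3a, which binds the syntaxin at the surface (-0.92), and the vesicle SNARE Vamp2 (-0.80) were lower, Tusc5, dim on all livers, was at least 1.79-fold lower, and the adaptor Gga2 was higher (0.96). Of 16 genes of the insulin signal 5 were higher, among them Grb14 (2.55) and the receptor substrate Irs1 (2.15), and 7 lower, among them the small GTPase Rhoq (-1.65). Of the list of 16 transcription factors tied to Slc2a4, 7 were higher, led by Klf15 (4.24) and Nr1h3 (2.33), and 6 were lower, including Thra (-1.54) and Pparg (-1.42).

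Of the further Slc2a genes on the array, 3 of 4 were lower in liver. Slc2a10 differed by -1.46 and Slc2a6 by -0.43, Slc2a13, the myo-inositol carrier, was dim on all livers and at least 2.96-fold lower, and Slc2a12 did not pass. The sodium-coupled carriers, which work against a gradient, gave 2 higher and 2 lower of 6, with Slc5a1 (SGLT1) lower in liver by 1.69 and Slc5a9 at least 2.84-fold lower.

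The second comparison set HF-low-suf against HF-low-low mice within each tissue. Calls required a fold change over 1.5 together with an unadjusted limma P under 0.01. In liver 48 probes (0.117%) met this, 0.0971% higher and 0.0194% lower in HF-low-suf, and in colon 69 (0.168%), 0.160% higher and 0.00729% lower. These counts and their split by direction depended on the processing: in liver 83.3% of the calls were higher in HF-low-suf, against 34.5% with plain background subtraction, 33.3% with Cy3 alone and 22.9% without HF-low-suf mice 4 and 5, and the count ran from 2 with median centring to 304 without HF-low-low mouse 3. None of the 14 Slc2a probes was called in either tissue, and no probe of the array passed an adjusted P of 0.05 (at an unadjusted P below 0.05 there were 877 probes, or 2.13%, in liver and 1228, or 2.98%, in colon, and at a P below 0.01 the shares were 0.170% and 0.270%). In liver 1 Slc2a probe had an unadjusted P below 0.05, that of Slc2a4. In colon 2 did, a Slc2a3 probe and a Slc2a9 probe, and both were near background there. The arrays of the 2 diets overlapped for all 14 probes in both tissues. The median difference of the 14 probes was -0.13 in liver and -0.02 in colon, against 0.01 and -0.01 over all probes.

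The Slc2a4 probe was the only one of the family whose interval in liver did not include 0. The log2 ratios of the HF-low-low livers were -4.37, -3.53, -3.14, -3.01, -2.95 and -2.09, and those of the HF-low-suf livers -3.18, -2.65, -2.30, -2.01, -1.25 and -0.16. The groups overlapped, with 3 HF-low-suf livers (mice 3, 5 and 6) below the highest HF-low-low liver (mouse 6) and the livers of HF-low-suf mice 1 and 2 above all others. Mean mRNA abundance was 2.39-fold higher in HF-low-suf liver, with a 95% interval of the log2 difference of 0.27 to 2.24 (unadjusted P = 0.0163, adjusted P = 1 in limma). The study's results give the opposite direction for Slc2a4 in liver, and the wording of its methods is mixed. The direction here takes the samples to be in Cy3, as the labels and methods state. The tissues bear on this, since the hepatocyte gene Apoa1 had a mean log2 ratio of 1.84 in liver and -4.23 in colon and the colon gene Krt20 -6.00 and -0.20. No such check was made of the diet labels. Each slide carried 1 liver of each diet, and the difference within a slide was 1.90, 3.36, 0.71, 2.35, 0.29 and -1.09 for slides 1 to 6, so that 5 of 6 were positive (exact permutation of the slides, P = 0.156, smallest possible 0.0312). On the 3 slides scanned on the first day the fitted difference was 1.99 (SE 0.49) and on the 3 of the second day 0.52 (SE 0.58). The livers of HF-low-suf mice 1 and 2 were both scanned on the first day, so that scan day and these livers cannot be told apart.

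Single livers moved Slc2a4 across the threshold. Without HF-low-low mouse 6 the difference was 1.47 and without HF-low-suf mouse 6 it was 1.51, and both then passed the call. Without HF-low-suf mouse 2 it was 0.90. It also passed with median centring (1.37) and in a fit of all 24 arrays together (1.26 with a smaller SE of 0.36). That fit pools the spread of both tissues. The SD of Slc2a4 was 0.75 in HF-low-low and 1.08 in HF-low-suf livers, against 0.31 and 0.26 in the colons.

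The livers in which Slc2a4 was highest also held markers of other tissues. The 5 defining fat markers on the array (Adipoq, Retn, Lep, Fabp4 and Cfd) had a mean log2 ratio of 2.25 in HF-low-suf mouse 1 and -0.26 in mouse 2, and of -1.97 to -0.97 in the other 10 livers. Their summed Cy3 signal, normalised between arrays, was 5189 to 8790 over HF-low-low livers and 5488 to 224000 over HF-low-suf livers. Lep was well above background in no liver. Of the whole list of 15 fat markers 14 were higher in HF-low-suf liver, with a median log2 difference of 0.37, and none was called. Without mouse 1 it was 10 of 15 with a median of 0.12, a choice made after seeing the data, as are the other mice left out here. The 23 skeletal muscle markers had a mean of -2.34 in HF-low-suf mouse 2 and of -4.66 to -3.60 in the other 11. Their summed Cy3 signal, normalised in the same way, was 74810 to 128800 in HF-low-low and 69530 to 421900 in HF-low-suf livers. All 23 were higher in HF-low-suf, with a median of 0.45, against 22 and a median of 0.13 without mouse 2. In all livers 1 was called, the muscle chloride channel Clcn1, which was well above background on 1 of 12 livers. The 8 hepatocyte markers had a median of -0.08, with 3 higher and none called. Without HF-low-suf mice 1 and 2, a choice made after seeing the data, the Slc2a4 difference was 0.65 (SE 0.37), and no Slc2a probe was called. Without the same 2 mice 8 of 15 fat markers were higher, with a median of 0.03, and 20 of 23 skeletal muscle markers, with a median of 0.09. The part of these markers in the Slc2a4 difference was not tested.

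**Figure D3:**
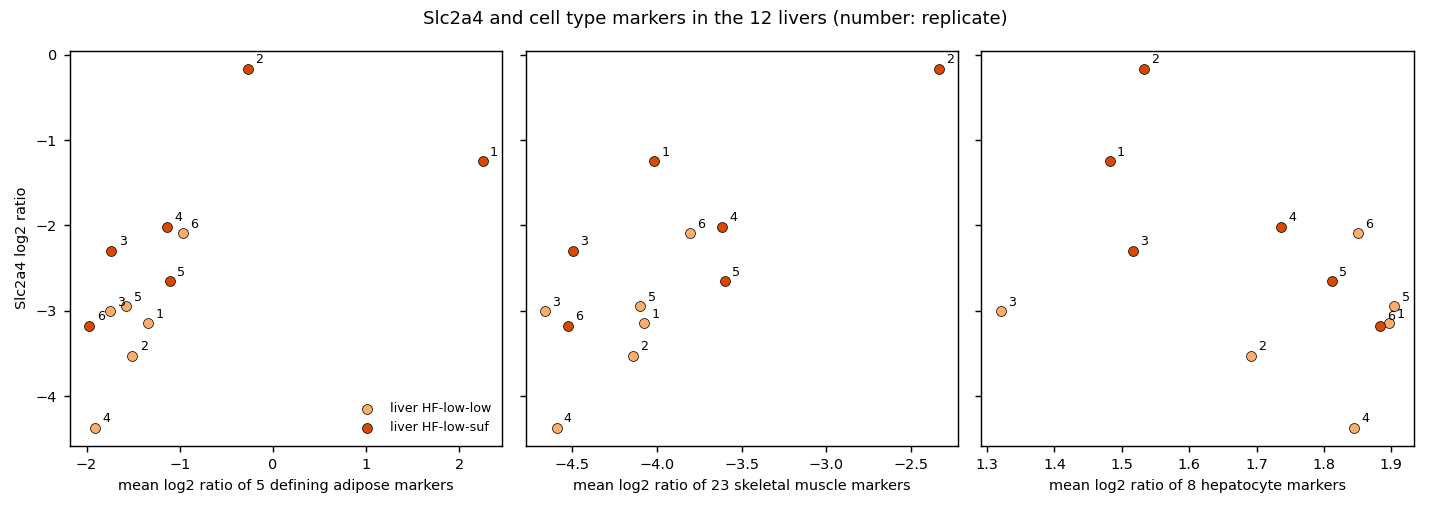
Slc2a4 log2 ratio (y axis) against the mean log2 ratio of fat, skeletal muscle and hepatocyte markers (x axes) in the 12 livers, numbered by mouse within a diet. HF-low-suf mice 1 and 2 have the highest Slc2a4 and the highest fat marker means, and mouse 2 the highest muscle marker mean.

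In colon Slc2a4 pointed the other way and was not called. The log2 ratios of the HF-low-low colons were -0.37, -0.09, 0.10, 0.34, 0.37 and 0.38, and those of HF-low-suf -0.50, -0.50, -0.32, -0.14, -0.02 and 0.12. The groups overlapped. The difference was 1.27-fold lower in HF-low-suf, with an interval of -0.70 to 0.00 (unadjusted P = 0.0519 in limma), and 5 of 6 slides were negative. Of the 15 fat markers 11 were lower in liver than in colon and 1 higher. Of all probes, dim ones included, 18.5% were lower and 18.7% higher. Within colon the median diet difference of the 15 fat markers was -0.33, with 3 above 0 and none called. Colon HF-low-suf mouse 5 was on the array with the bright reference. Its mean of the 15 fat markers was 0.18, against 0.77 to 1.57 in the other colons. Its mean of the defining fat markers was also the lowest, 0.87, against 1.88 to 2.93 in the other colons. That mouse had one of the 2 lowest Slc2a4 values. The other was that of HF-low-suf mouse 1, whose mean of the defining fat markers was 2.46. The part of these markers in the colon difference was not tested.

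**Figure D4:**
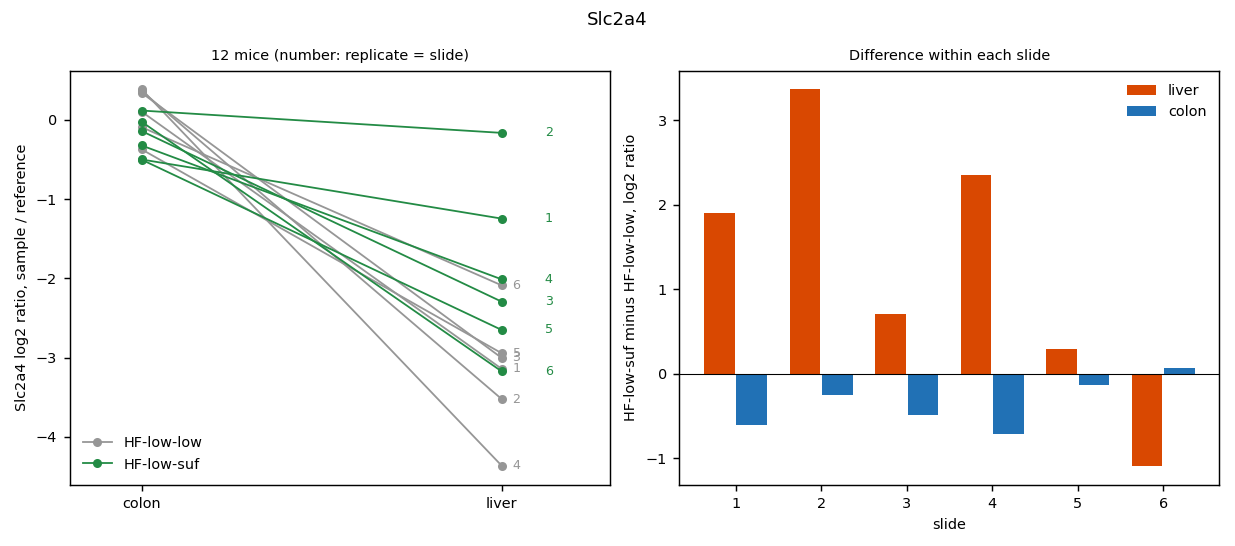
Left, Slc2a4 log2 ratio (y axis) in colon and liver, joined for each of the 12 mice; right, the difference HF-low-suf minus HF-low-low (y axis) within each of the 6 slides (x axis) in liver and colon. Every line falls from colon to liver, and the liver bars are positive on 5 of 6 slides while the colon bars are negative on 5 of 6.

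Because each mouse gave both tissues, the diet effect on the liver minus colon difference was tested within mice. For Slc2a4 the liver minus colon difference had a lowest value of -4.75 and a median of -3.30 in HF-low-low mice, and ran from -3.15 to -0.28 with a median of -1.92 in HF-low-suf mice. The ranges overlapped, and the gap was smaller by 1.61 (SE 0.49) in HF-low-suf mice, with an unadjusted P of 0.00523 and an adjusted P of 0.753 in limma (exact permutation of the mice, P = 0.0216). Over all probes 1.21% had an unadjusted P below 0.01 and 6.45% a P below 0.05, and none passed adjustment. Of the 14 Slc2a probes, 2 and 3 did so, Slc2a4, the dim Slc2a9 probe A_52_P335166 and, at 0.05, the Slc2a2 probe A_52_P409988. Without HF-low-suf mice 1 and 2 the Slc2a4 value was 1.01.

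The remaining transporters showed smaller diet differences. For Slc2a2 the probe A_52_P409988 was 1.36-fold lower in HF-low-suf liver, with an interval of -0.96 to 0.06 on the log2 scale (unadjusted P = 0.0801 in limma), and lower on 5 of 6 slides, while the probe A_51_P185693 was lower by 0.26 with an interval of -0.71 to 0.18. The lowest liver on both probes was that of HF-low-suf mouse 1 (0.58 on A_52_P409988), the liver with the highest fat marker mean. Without that mouse the differences were -0.27 (SE 0.20) on A_52_P409988 and -0.09 (SE 0.16) on A_51_P185693. In colon the fitted difference of A_52_P409988 was 0.29 (interval -0.25 to 0.84), and that between the tissues -0.74 (SE 0.31, adjusted P = 0.756 in limma), but only 1 colon array of the HF-low-low mice and 3 of the HF-low-suf mice passed the mark, so that both rest mostly on dim arrays.

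For Slc2a5 the liver value was 0.42 higher in HF-low-suf (interval -0.12 to 0.97) and the colon value -0.04 (-0.55 to 0.47). Slc2a1 differed by -0.21 in liver (-0.70 to 0.28) and -0.13 in colon (-0.51 to 0.24). Slc2a8 probe A_52_P125354 differed by -0.00 (-0.35 to 0.34) in liver and 0.10 (-0.28 to 0.47) in colon. The Slc2a3 probe A_52_P354744 had a fitted difference of 0.16 in liver (-0.39 to 0.70), where 4 of 12 arrays passed the mark and the value rests mostly on dim arrays, and of 0.08 in colon (-0.26 to 0.42). The Slc2a9 probe A_51_P261092 differed by -0.16 in liver (-0.80 to 0.48) and 0.08 in colon (-0.41 to 0.57). In colon the intervals of Slc2a1, Slc2a3, Slc2a5, Slc2a8 A_52_P125354 and Slc2a9 A_51_P261092 lay within a 1.5-fold change in either direction. The Slc2a9 probe passed the mark on 6 of 12 colons, so that its interval rests partly on dim arrays. In liver both Slc2a8 probes lay within 1.5-fold, but A_51_P358171 passed the mark on 5 of 12 livers and rests mostly on dim arrays. The liver intervals of Slc2a1, Slc2a2, Slc2a3, Slc2a4, Slc2a5 and Slc2a9 reached past 1.5-fold on at least one side.

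**Figure D5:**
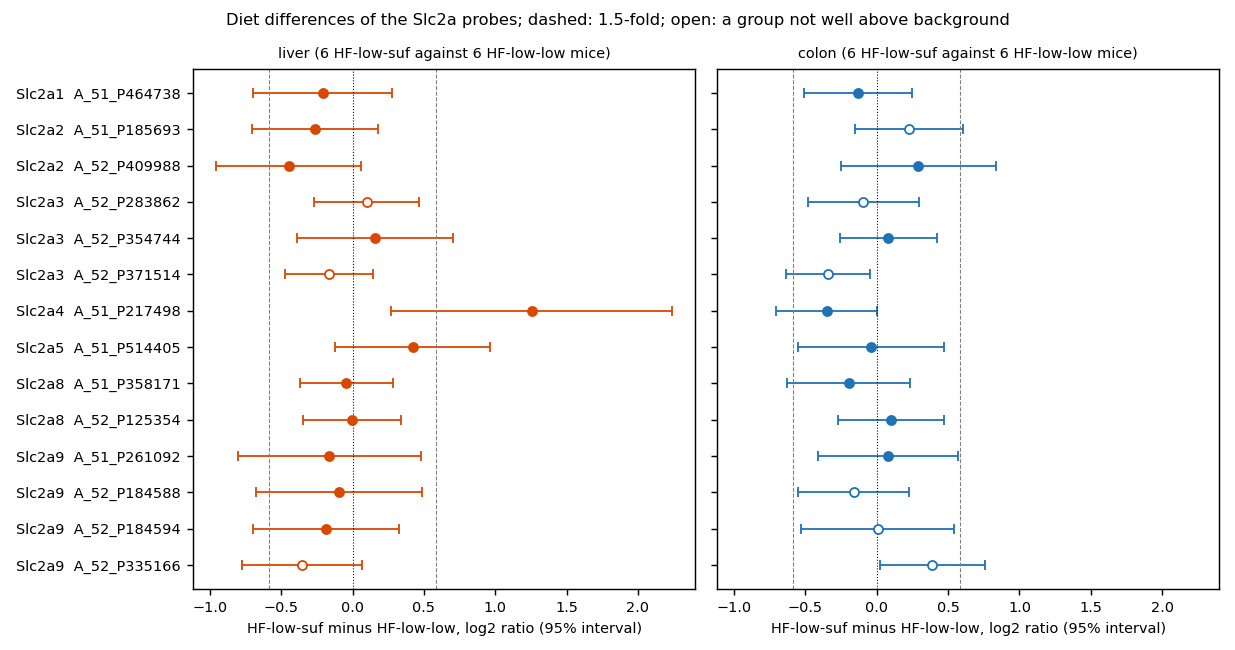
Difference HF-low-suf minus HF-low-low in log2 ratio with its 95% interval (x axis) for each Slc2a probe (y axis) in liver and colon, open where a group was dim; dashed lines mark 1.5-fold. Slc2a4 in liver lies at 1.26 and is the only probe whose interval lies wholly to the right of 0 in that tissue.

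For the diet, in liver and in colon, 0 genes were called of the 19 of vesicle traffic, the 16 of the insulin signal, the 16 transcription factors, the 12 of hexose phosphorylation and release, the 7 regulators, the 4 further Slc2a genes and the 6 sodium-coupled carriers. Since 0.117% of all probes were called in liver and 0.168% in colon, lists of this size would hold about none, and nothing is read from these counts. Their median differences in liver lay between -0.07 and 0.17. Of these genes 1 reached an unadjusted limma P under 0.05, Cbl in colon, with a log2 difference of 0.64 (SE 0.29). Its probe was well above background on 5 of 12 colons.

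The transcripts most like Slc2a4 over the 12 livers, among 14033 probes of named genes well above background on at least 6 of them, were Nol3 (Pearson r = 0.906), Pdk4 (0.892), Ms4a1 (0.889), Ldhb (0.889) and Cox4i1 (0.884). Nol3 is a regulator of cell death that is abundant in muscle, Pdk4 a kinase that restrains pyruvate dehydrogenase, Ms4a1 a B cell surface protein, Ldhb a lactate dehydrogenase subunit and Cox4i1 a subunit of cytochrome oxidase. Without HF-low-suf mice 1 and 2 these correlations over 10 livers were 0.814, 0.749, 0.768, 0.645 and 0.628. Over the 12 colons the first was Gstz1 (0.936), which the liver list did not hold. These are descriptions over points that share slides, dye and reference, and were not tested.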

How the data were processed

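The deposited files were the scanner output of Agilent Feature Extraction 9.5 for each array, with red and green intensities per spot, which the authors had scanned and segmented but, in the columns used here, not normalised; per the file headers positions are in build mm7. Mean Cy3 and Cy5 intensities were corrected by normexp (offset 50), normalised by loess within arrays with limma 3.58.1 in R 4.3.3 (statmod 1.5.0, package data.table at version 1.17.8), and given as log2 of Cy3 over Cy5. The 1639 control spots and outlier-marked spots were removed, and the spots of a probe were averaged. The log ratios and p-values computed by Feature Extraction were not used; its processed intensities served as an alternative.

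Groups followed the labels, and replicates were separate mice. Diet was tested by limma within each tissue (12 arrays), and tissue and the diet by tissue difference over 24 arrays with mouse as a fixed term, each over all probes with Benjamini-Hochberg adjustment. Exact permutation tests were two-sided and used 924 regroupings of mice for diet, 4096 sign flips for tissue and 64 for slides. Gene lists took the brightest probe of a gene. A probe was well above background where at least 50% of its spots were so marked in Cy3, and bounds ("at least") were set against the dimmest signal well above background. Bounds and summed Cy3 signals used Cy3 values rebuilt after loess and quantile scaling of mean intensities between arrays (Aquantile in limma). Named genes were the 7 members, listed genes past a threshold or with the 4 largest differences of a list, and the 5 most like Slc2a4. The members and lists were chosen with earlier results of these data known. Symbols were as in the files. Some listed genes are not reported here by name. The number of arrays limits the precision. Alternatives covered background correction, normalisation, dim and outlier spots, blocks, single spots and left-out mice. The scripts were tested on simulated data.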

Additional observations from a re-analysis of the deposited data

Results flagged for a closer look

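For Slc2a4 the diet difference in liver exceeded that in colon by 1.61 (SE 0.49, unadjusted P = 0.00523, adjusted P = 0.753 in limma, exact permutation P = 0.0216). Leaving out 1 mouse at a time kept it between 1.32 and 1.90. Without HF-low-suf mice 1 and 2, chosen after seeing the data, it was 1.01.

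For the Slc2a9 probe A_52_P335166 the same quantity was -0.74 (SE 0.20, unadjusted P = 0.00204, adjusted P = 0.753 in limma). It was well above background on 1 of 24 arrays and on none of the livers, so this is a difference of ratios near background and not a measured one, and with the signals processed by Feature Extraction the value was -0.08.

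One array stood apart from its group. Slc2a3 probe A_52_P354744 had a log2 ratio of -0.67 in colon HF-low-suf mouse 5, the array with the bright reference, by Dixon's criterion. It was 1 of 56 groups examined, where 2.8 would be marked by chance.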

How the results depend on the processing

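Of the 14 Slc2a probes, 8 to 9 differed between liver and colon under every alternative, and over all probes 13094 to 19016 did. The share of calls higher in liver was 50.3%, against 38.6% with the signals processed by Feature Extraction and 32.2% with median centring. Slc2a8 A_52_P125354 lost its call with median centring. No probe passed for the difference of the diet effect between tissues under any alternative.

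Diet counts over all probes were less stable. The 48 probes in liver became 12 without background correction, 2 with median centring, 6 with Cy3 alone, 2 among probes well above background on at least 6 arrays, 137 with all 24 arrays in one fit, 31 without HF-low-suf mice 1 and 2 and 140 without mice 4 and 5, and ranged from 9 to 304 as single mice were left out (9 without HF-low-low 1, 304 without HF-low-low 3). The 69 in colon became 13 without background correction, 26 with median centring, 3 among probes well above background on at least 6 arrays, 113 with scan day as a term and 23 without mice 4 and 5, with 23 to 257 on leaving out single mice (23 without HF-low-low 1, 257 without HF-low-low 5). Of the calls in liver 83.3% were higher in HF-low-suf, against 34.5% with plain background subtraction, 61.4% with the signals processed by Feature Extraction, 33.3% with Cy3 alone and 22.9% without mice 4 and 5. In colon 95.7% were, against 79.2% with the processed signals, 80.8% with median centring, 27.4% without mice 1 and 2 and 73.9% without mice 4 and 5. The cause was not tested.

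Among the Slc2a probes 0 were called for diet in liver, and 1, Slc2a4, with median centring (1.37) or all 24 arrays in one fit (1.26); leaving out single mice gave 0 to 1 and differences of 0.90 to 1.51 for Slc2a4. Its value was 1.99 on scan day 1 alone, the day of HF-low-suf mice 1 and 2, 1.46 on spot 1 and 1.47 on spot 10, each past the call. In 13 instances, over 9 uncalled differences, a value changed sign and moved by more than 1 SE. The Slc2a3 A_52_P354744 tissue difference was -0.061 with plain subtraction, -0.029 without correction, -0.47 with the processed signals, -0.17 with median centring and -0.19 with Cy3 alone. With the processed signals Slc2a8 A_51_P358171 in liver was 0.13, and the difference of the diet effect was 0.085 for Slc2a2 A_51_P185693 and -0.37 for Slc2a9 A_52_P184588, which were well above background on 0 and 1 of 12 colons, so that neither sign is a measured one. On scan day 2 alone the diet difference was 0.22 for Slc2a1 and 0.055 for Slc2a2 A_51_P185693 in liver, and 0.51 for Slc2a5 in colon. Slc2a8 A_51_P358171 in colon was 0.051 without mice 1 and 2, and Slc2a3 A_52_P354744 in liver -0.10 without mice 4 and 5. Of 564 values 538 kept their side of the threshold with no change of sign beyond 1 SE, 12 gained a call and 1 lost it. Of 504 with single mice left out, 499 kept their side in this sense and 5 gained a call. Changes of sign within 1 SE of uncalled values are among those that kept it.

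Slide numbers did not pair the mice: the deviations of same-numbered arrays correlated at -0.500 to 0.528 in liver and -0.0851 to 0.238 in colon, and 2 of 6 livers and 3 of 6 colons correlated best with their own number. With slide as a replicate block the counts were 131 in liver and 92 in colon.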
